A study of Mus with 12 samples.

Results

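The genes described here encode the proteins of the cytosolic ribosome. They were chosen by name: every row of the deposited table whose symbol starts with Rpl or Rps and a digit, with Rplp0 to Rplp2 and Rpsa, and without the S6 kinases and without symbols that contain -ps, which mark pseudogenes. The rule found 92 of the 27294 rows of the table. Of these, 46 encode proteins of the large subunit and 31 proteins of the small subunit, and these 77 are called canonical genes below. The other rows were 6 paralogues of canonical genes, 2 retrogenes, 6 rows annotated as pseudogenes and Rps19bp1, which encodes a protein that binds RPS19 and is not part of the ribosome.

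The ribosome joins amino acids in the order a messenger RNA gives. Its small subunit reads the message and its large subunit forms the peptide bonds. Each canonical protein is present in a single copy per ribosome, apart from the acidic stalk proteins, so their genes are usually expressed as a group. In vertebrates their messages begin with a tract of pyrimidines, through which mTOR signalling sets how much of them is translated, with LARP1 as a binding protein of that tract. Free ribosomal proteins, among them RPL5 and RPL11, can bind the p53 ubiquitin ligase MDM2.

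RNA came from mouse primary peritoneal macrophages, which are phagocytes of the abdominal cavity, per the labels. There were 12 libraries in 4 groups of 3: wild type (WT) without a treatment label, WT with the treatment label oxLDL (oxidised low-density lipoprotein, a modified cholesterol carrier that macrophages take up), knockout (KO) without a treatment label, and KO with oxLDL. The titles of the oxLDL libraries say LDL, no source used here gives the dose, time, age or strain, and the protocol speaks of RNA of an adipose type, which is at odds with the source label. Which gene the KO lacks is not in the labels. WEE1, a kinase that delays entry into mitosis, is the gene in the series title. FPKM is the fragment count scaled by a length per gene and by library size. For Wee1 it was 3.095, 3.25 and 2.797 in the untreated WT libraries and 1.44, 1.78 and 1.63 with oxLDL in WT. It was 1.63, 1.603 and 1.22 in the untreated KO libraries and 1.297, 1.596 and 1.25 with oxLDL in KO. In FPKM, Wee1 was thus below untreated WT in every KO library but overlapped between KO and WT with oxLDL. With the TMM scaling described below, edgeR's test called Wee1 lower in KO in both comparisons. The log2 difference was −0.93 untreated (adjusted p = 0.000139) and −0.53 with oxLDL (adjusted p = 0.00587). The labels do not say which part of a gene was removed. Nothing in the labels says that the 3 libraries of a group came from separate animals, so p-values measure library-to-library spread only, which may be technical.

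Library totals ran from 53588814 to 76809931 counts, and no pair of libraries held identical values. All 8 macrophage markers were detected in every group, and their summed FPKM ran from 21100 to 21500 in untreated WT, 14900 to 15900 in oxLDL-treated WT, 11100 to 11800 in untreated KO and 10700 to 11300 in KO with oxLDL. Summed FPKM of 5 B cell markers was at most 2.53 in any library, that of 5 T and NK cell markers at most 1.2, and that of 5 mast cell markers at most 5.32. Cd3e and Ncr1 were listed at 0 in all 6 KO libraries. The sums reached 5.49 for neutrophil, 1.48 for dendritic cell, 9.49 for mesothelial cell or fibroblast and 0.4 for erythroid markers. The 5 markers of large peritoneal macrophages summed to 139 to 148 in untreated WT, 71.3 to 76.6 in oxLDL-treated WT, 483 to 516 in untreated KO and 436 to 504 in KO with oxLDL. The part of these marker differences in the results on ribosomal protein genes was not tested.

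The canonical genes were abundant but not equally so. Averaged over the 12 libraries, the highest FPKM was 397 for Rps3a1, a small subunit protein, followed by 318 for Rplp0, the base of the stalk that recruits elongation factors. Rpl19 followed with 262 and Rpl4 with 261, both of the large subunit. The lowest canonical genes were Rpl21 with 4.98, Rps27 with 7.97 and Rps28 with 9.16. The length implied by counts and FPKM was 3784 bases for Rpl12, nearly all of its row from position 32961559 to 32965345. For Rps15a it was 6592 bases. The lengths used may thus exceed those of the mature messages, so the order of genes by FPKM is uncertain. The deposited values do not give protein amounts. The median canonical gene had 63.7, 56.6 and 53.7 FPKM in the untreated WT libraries and 37.1, 37.3 and 36.1 in those of WT with oxLDL. In KO it had 49.8, 63.8 and 49.3 without treatment and 66.5, 54.1 and 48.7 with oxLDL, so the treated WT libraries were the lowest of the 12.

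Reproducibility also differed between genes. The coefficient of variation between the 3 libraries of a group, as the median over the 4 groups, was lowest for Rpsa, the small subunit protein also called the laminin receptor precursor, with 1.78%. It was 2.77% for Rpl4 and, among the canonical genes, highest for Rps27 with 64.2%, Rpl38 with 41.2% and Rpl7a with 31.0%. Rps27, a zinc finger protein of the small subunit, had FPKM of 16.01, 17.3 and 3.55 in untreated WT and 14.4, 8.87 and 2.89 in KO with oxLDL. No group of Rps27 stood apart from the others, and the gene was called in none of the 5 comparisons of edgeR's test. Rpl38, known for a role in translation of Hox messages, had 9.76, 8.19 and 14.4 in untreated WT and 4.698, 6.73 and 13.3 in WT with oxLDL, which overlap.

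The 92 rows together took 1.21, 1.25 and 1.24% of all counts in the untreated WT libraries. In WT with oxLDL they took 0.823, 0.847 and 0.888%, so every treated WT library was below every untreated one. In KO the share was 1.10, 1.23 and 1.09% without treatment and 1.31, 1.17 and 1.06% with oxLDL, and these ranges overlapped. All 6 KO shares lay above all 3 of WT with oxLDL. As a ratio of group means the share with oxLDL was 0.690 of that without in WT and 1.03 of it in KO. In bulk RNA, fewer cells of a type and less RNA per cell cannot be told apart. These shares depend on what else was sequenced: the 10 most abundant other genes, among them Psap, Gpnmb and Ctsd, took 14.1 to 14.3% of counts in untreated WT and 9.95 to 9.99% in WT with oxLDL. With those genes left out of the totals, the ratio in WT was 0.657.

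**Figure D1:**
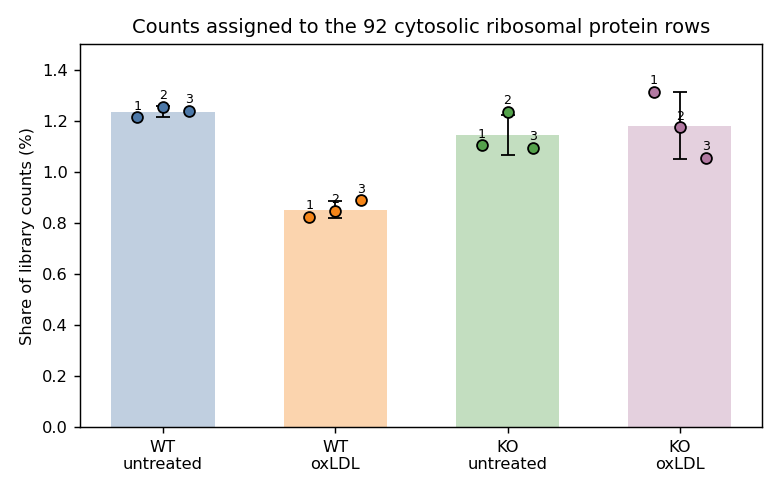
Share of each library's counts, in percent on the vertical axis, assigned to the 92 ribosomal protein rows in the 4 groups on the horizontal axis; numbered points are the 3 libraries of a group, bars their mean and error bars the SD. The WT oxLDL libraries, from 0.823 to 0.888%, sit below the 9 other libraries.

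The ratio of large subunit to small subunit counts needs no scaling between libraries. It was 1.40, 1.39 and 1.41 in untreated WT and 1.39, 1.38 and 1.37 in WT with oxLDL. In KO it was 1.45, 1.47 and 1.46 without treatment and 1.47, 1.44 and 1.51 with oxLDL. Each of the 6 KO libraries was above each of the 6 WT libraries, while the treated and untreated libraries of KO overlapped.

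The libraries of a group did not carry the canonical genes at one level. On the TMM scale, which sets the bulk of genes equal between libraries, 76 of 77 canonical genes of KO oxLDL replicate 1 were above their group mean and 1 of 77 in KO oxLDL replicate 3 was. The median gap to the group mean was 0.21 and −0.19 on the log2 scale in these libraries. In untreated KO, replicate 2 had 71 of 77 genes above the mean with a median of 0.13. The WT libraries were closer, with medians from −0.087 to 0.087. The canonical genes of one library therefore moved together, and their tests are not independent of each other.

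With oxLDL in WT, 25 of the 91 members that passed the low-count filter were lower and 4 were higher by edgeR's quasi-likelihood test at an adjusted p under 0.05. The filter removed only Rpl3l, a paralogue of Rpl3 with 0 to 8 counts a library. Of all 17291 genes tested, 51.2% were called in this comparison, 27.2% lower and 23.9% higher, so the count of lower members was near the background and that of higher members below it. The median log2 change was −0.17 over the members and −0.20 over the canonical genes, beside −0.06 over all genes. The 3 libraries of one group did not overlap those of the other for 41.8% of the members on the TMM scale, against 59.1% of all genes. With library totals it was 84.6% of the members against 66.6% of all genes, so the order of these shares turned with the scaling.

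The lower members held proteins of both subunits. Rpl36, a large subunit protein, had FPKM of 43.8, 51.4 and 47.6 in untreated WT and 22.97, 13.2 and 26.1 with oxLDL, and its log2 change was −0.78 (SE 0.2, adjusted p = 0.00378). Rps19, the small subunit protein most often mutated in Diamond-Blackfan anaemia, had 12.6, 14.1 and 15.1 without and 4.88, 6.503 and 7.57 with oxLDL, and changed by −0.73 (SE 0.14, adjusted p = 0.000494). In both genes the 3 treated libraries lay below the untreated ones in FPKM, and the lowest treated library was a different one. Rpl27a, of the large subunit, had 37.9, 48.3 and 46.8 without and 27.4, 15.8 and 21.4 with oxLDL and changed by −0.63 (SE 0.17, adjusted p = 0.00592).

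Rpl3, Rpl10, Rpl10a, Rpl12 and Rpl13a of the large subunit were also lower, with smaller fitted changes. Rpl3, which reaches close to the peptidyl transferase centre, went from 101, 113 and 118 to 69.98, 64.1 and 69.4 FPKM with a log2 change of −0.30 (SE 0.063, adjusted p = 0.00112). Rpl10, which joins the large subunit late in its assembly, went from 235, 246 and 246 to 154, 152 and 166 with a change of −0.21 (SE 0.057, adjusted p = 0.00555). In neither gene did a treated library reach an untreated one in FPKM. With library totals, on which FPKM rests, the 2 groups did not overlap for 66.6% of all genes. The falls in FPKM are larger than the fitted changes, which are on the TMM scale. Rpl10a, the protein of the L1 stalk through which spent tRNA leaves, went from 48.03, 47.8 and 50.6 to 26.4, 28.03 and 31.5 with a change of −0.36 (SE 0.081, adjusted p = 0.00178). Rpl12, at the base of the opposite stalk where elongation factors bind, went from 39.4, 41.8 and 44.7 to 25.7, 24.1 and 26.3 with a change of −0.32 (SE 0.087, adjusted p = 0.0068). Rpl13a, also known as a part of the interferon-gamma activated inhibitor of translation in myeloid cells, went from 78.3, 87.2 and 84.5 to 40.9, 43.6 and 49.8 with a change of −0.49 (SE 0.1, adjusted p = 0.000913). In all 3 genes the treated libraries lay below the untreated ones in FPKM. Rpl22, whose paralogue is Rpl22l1, fell to nearly the same degree, with a change of −0.48 (SE 0.091, adjusted p = 0.000409).

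The stalk genes differed from each other. Rplp1 fell by a log2 change of −0.33 (SE 0.12, adjusted p = 0.0351) and Rplp2 of −0.33 (SE 0.11, adjusted p = 0.0178), and both encode the small acidic proteins at the tip. The call on Rplp1 was lost with RLE scaling and without WT untreated replicate 2 or 3 or WT oxLDL replicate 1 or 2. That on Rplp2 was lost without replicate 2 of either WT group. Rplp0, the base to which they bind, was 349.6, 350.5 and 370.02 FPKM without and 266, 266 and 270.2 with oxLDL, and its log2 change on the TMM scale was −0.01 (SE 0.056, adjusted p = 0.94). The FPKM of Rplp0 thus differed without overlap while its TMM value was not called, and FPKM rests on library totals.

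The higher members included a large subunit gene, a paralogue and the gene that encodes no ribosomal protein. Rpl24 (chr16:55966275-55971435 on GRCm38, the plus strand), which forms a bridge between the subunits, had 120.3, 128 and 114 without and 113, 123 and 136 with oxLDL. Those FPKM values overlapped, and on the TMM scale the change was 0.45 (SE 0.1, adjusted p = 0.00185). The paralogue Rpl7l1, a factor of large subunit assembly, changed by 0.20 (SE 0.063, adjusted p = 0.016) and Rps19bp1 by 0.49 (SE 0.18, adjusted p = 0.0311). Both Rpl7l1 and Rps19bp1 had overlapping or lower FPKM with oxLDL, and the call on Rps19bp1, with 252 to 417 counts a library, was lost under 12 of the other settings and omissions tried.

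**Figure D2:**
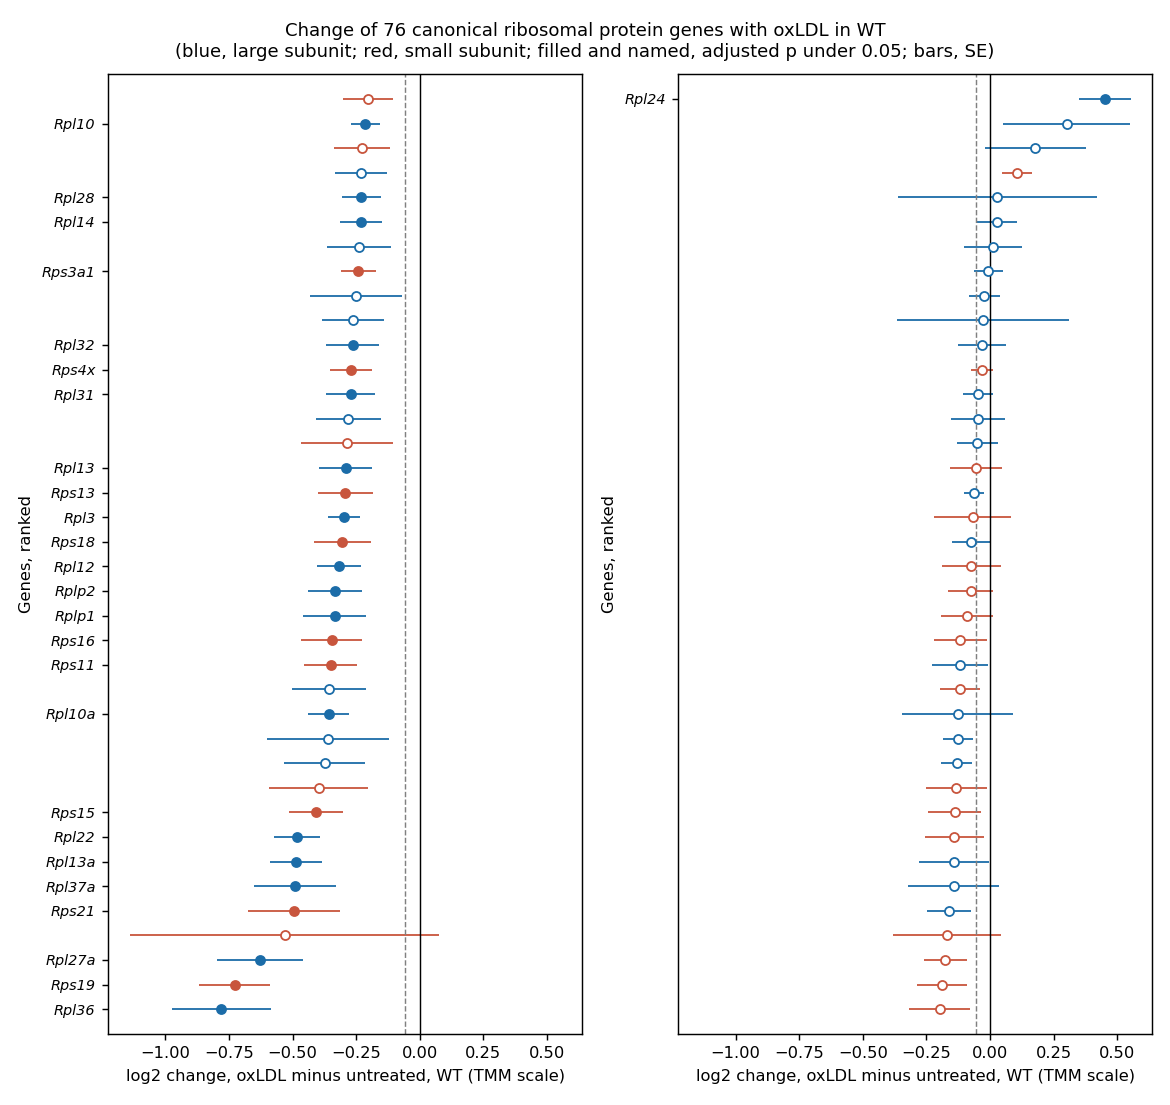
Fitted log2 change with oxLDL in WT (horizontal axes, TMM scale, bars 1 SE) of 76 canonical genes, ranked over 2 panels with the called genes named; the dashed line is the median of all genes tested, −0.06. Rpl24 is the filled point to the right of 0, and Rpl36, Rps19 and Rpl27a are the lowest filled points on the left.

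The 38 canonical genes with the shorter lengths, as the ratio of counts to FPKM implies, had a median change of −0.25 and the 39 with the longer ones −0.18. These lengths may exceed those of the mature messages. Several other canonical genes of known role were not called in WT. Rps6, the substrate of the S6 kinases, had a log2 change of 0.11 (SE 0.059, adjusted p = 0.153), and Rpsa of −0.03 (SE 0.043, adjusted p = 0.577). Rpl5 and Rpl11, which with 5S rRNA form the particle that binds MDM2, had changes of −0.13 and −0.24 with adjusted p = 0.0946 and 0.128. Rps27a, made as a fusion with ubiquitin, had −0.17 (SE 0.21, adjusted p = 0.552). Rps3, at the entry of the message channel, had −0.20 (SE 0.098, adjusted p = 0.101), and Rps4x, an X-linked small subunit gene, was called lower at −0.27 (SE 0.082, adjusted p = 0.0133). Leaving out untreated replicate 2 or treated replicate 1 or 2 ended the call on Rps4x.

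How many members were called depended on library scaling. TMM factors, which multiply the library totals, were 1.10 to 1.13 in untreated WT, 0.832 to 0.843 in oxLDL-treated WT and 1.03 to 1.04 in KO. Scaling by library totals alone moved the median of all genes in WT with oxLDL by −0.41, from −0.06 to −0.46. With that scaling 75 members were lower and 1 was higher, beside 61.0% of all genes called, 48.1% lower and 12.9% higher. The median log2 change of the members was then −0.58. Set against the median of all genes, the members' median was −0.11 with TMM and −0.11 with library totals. A change of scaling shifts all genes of a comparison by about the same amount, so this gap could hardly differ. The upper quartile gave 40 lower and 2 higher, beside 51.6% of all genes called. RLE scaling gave 17 lower and 5 higher, beside 51.1%, and DESeq2 23 lower and 5 higher, beside 52.4%. Computing TMM from the genes that are not members left the counts at 25 lower and 4 higher.

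The genes that kept a call were the same over the scalings for only part of the group. In all 8 combinations of scaling and tool, 17 members were called lower in WT. Among them were Rpl36, Rps19, Rpl27a, Rpl13a, Rpl22, Rpl10a, Rpl12, Rpl10 and Rpl3. The share of all genes called in all 8 is not given here or below. The 8 are not independent, because library totals, totals without the members and limma on FPKM all rest on totals. Rps6 and Rpl7l1 were called in opposite directions by different scalings. With library totals the log2 change was 0.04 for Rpl24, −0.30 for Rps6 and −0.21 for Rpl7l1. For Rplp0 the change was −0.42 with library totals, called lower, where TMM made no call.

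**Figure D3:**
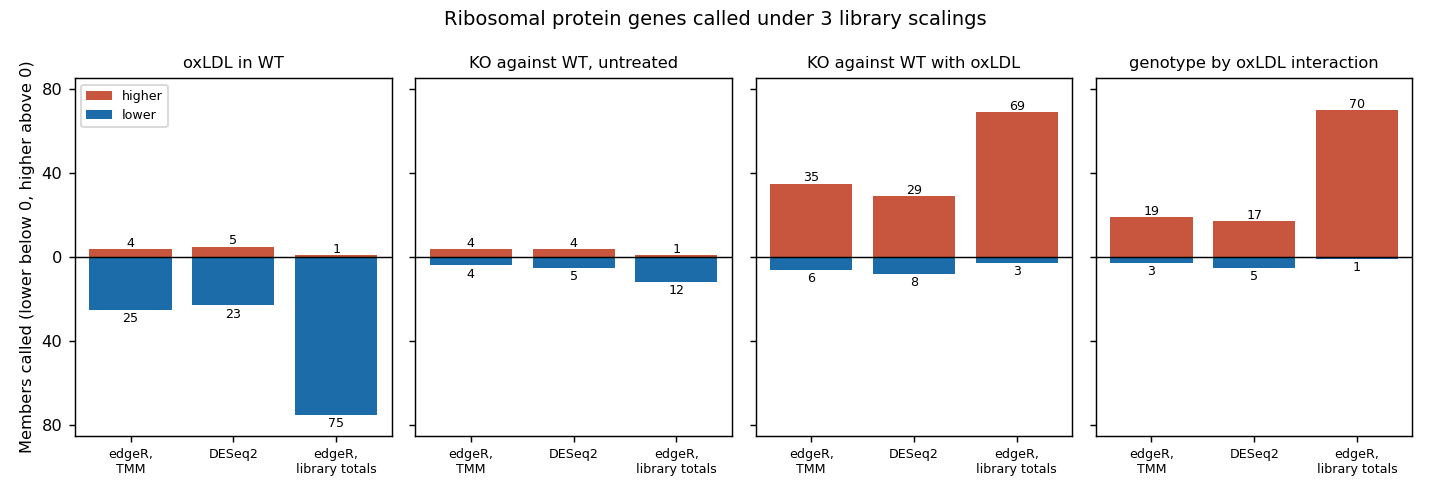
Number of the 91 tested members called higher (above 0) or lower (below 0) on the vertical axis in 4 comparisons, by edgeR with TMM, by DESeq2 and by edgeR with library totals. With oxLDL in WT the lower calls number 25, 23 and 75, and in untreated KO against WT 4, 5 and 12.

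In KO, no member was called with oxLDL by edgeR's test, and 2 of all 17291 genes, 0.0116%, were called. At an unadjusted p under 0.05, 4 members were higher and 0 lower. The share of all genes under that threshold is not given here, so this count is not read as a result on the members. DESeq2 called 2 members higher, beside 0.636% of all genes. Rpl27a had FPKM of 21.2, 25.5 and 18.3 in untreated KO and 48.4, 40.7 and 38.9 with oxLDL, without overlap, and a log2 change of 0.98 (SE 0.17, adjusted p = 0.0959). Rps10, at the head of the small subunit, had 22.6, 26.00 and 18.6 without and 36.3, 32.9 and 31.2 with oxLDL, also without overlap, and a change of 0.58 (SE 0.12, adjusted p = 0.209). These were the 2 members DESeq2 called. The median log2 change of the members was 0.04, beside −0.004 over all genes, and library totals gave the same count of 0.

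Without treatment, KO differed from WT in 8 of the 91 members, 4 higher and 4 lower, beside 31.0% of all genes, 14.8% higher and 16.2% lower. Library totals gave 1 higher and 12 lower, beside 32.5% of all genes, 10.2% higher and 22.3% lower, and DESeq2 4 and 5, beside 33.1%. The members' median log2 difference was −0.04 and that of all genes −0.01. Rpl10a was 59.1, 63.8 and 56.9 FPKM in untreated KO, above the 48.03, 47.8 and 50.6 of untreated WT in every library, with a log2 difference of 0.40 (SE 0.08, adjusted p = 0.00126). Rpl12 had 44.6, 53.3 and 43.6 in KO, overlapping WT on the FPKM scale, and a difference of 0.27 (SE 0.086, adjusted p = 0.0253). Rpl10 differed by 0.22 (SE 0.057, adjusted p = 0.00705) and Rpl5 by 0.18 (SE 0.062, adjusted p = 0.0433). Rpl10a alone of these 4 was called higher under all 8 scalings and tools, and the calls on Rpl12, Rpl10 and Rpl5 were lost with library totals. That on Rpl12 was also lost without WT untreated replicate 1 or 2 or KO untreated replicate 2, and that on Rpl5 without any one of the 6 untreated libraries.

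The 4 lower genes in untreated KO were Rpl27a, Rps27l, Rps10 and Rpl24. Rpl27a differed by −0.93 (SE 0.17, adjusted p = 0.000578), Rps10 by −0.46 (SE 0.12, adjusted p = 0.00887) and Rpl24 by −0.45 (SE 0.1, adjusted p = 0.00337). In untreated KO, Rpl24 had 82.3, 84.6 and 78.9 FPKM, each below every untreated WT library, and the same held for Rpl27a and Rps10. Rps27l, a paralogue of Rps27 that p53 induces, had 11.1, 15.1 and 11.1 in KO against 16.8, 19.8 and 19.1 in WT and differed by −0.47 (SE 0.15, adjusted p = 0.0275). All 4 were lower under the 8 scalings and tools. Leaving out untreated KO replicate 3 ended the call on Rps10, and leaving out any of 4 untreated libraries ended that on Rps27l.

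With oxLDL, 35 of the 91 members were higher in KO than in WT and 6 were lower, beside 57.9% of all genes, 30.6% higher and 27.4% lower. The share of lower calls was below the background. The members' median log2 difference was 0.22, beside 0.05 for all genes. The gap of 0.16 between the 2 medians was also 0.16 with library totals, which shift all genes by about the same amount. The comparison shares its WT oxLDL libraries with that of oxLDL in WT, so a gene low in those libraries appears in both. Library totals gave 69 higher and 3 lower, beside 62.7% of all genes, 43.6% higher and 19.1% lower, and DESeq2 29 and 8, beside 58.5%. Leaving out 1 library at a time gave 22 to 48 higher members. The 22 came without KO oxLDL replicate 1, the library with the highest canonical genes, beside 27.5% of all genes called higher. The 48 came without KO oxLDL replicate 3, beside 28.2%.

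Rpl10a of the L1 stalk led the higher genes. Rpl10a had 70.7, 66.4 and 57.1 FPKM in KO with oxLDL against 26.4, 28.03 and 31.5 in WT with oxLDL, and its log2 difference was 0.87 (SE 0.081, adjusted p = 2.8e-07). Rpl36 had 49.2, 40.01 and 40.6 against 22.97, 13.2 and 26.1 and differed by 0.75 (SE 0.2, adjusted p = 0.00419). Rpl27a had 48.4, 40.7 and 38.9 against 27.4, 15.8 and 21.4 and differed by 0.68 (SE 0.17, adjusted p = 0.00288). The KO libraries of these genes were all above the WT ones in FPKM, which rests on library totals. With library totals the 2 groups did not overlap for 66.9% of all genes. Rpl12 differed by 0.68 (SE 0.087, adjusted p = 8.83e-06), Rplp1 by 0.64 (SE 0.12, adjusted p = 0.000433) and Rplp2 by 0.37 (SE 0.11, adjusted p = 0.00796). Rpl4, the large subunit protein that lines the exit tunnel, had one of the smallest called differences, 0.15 (SE 0.04, adjusted p = 0.0048), with FPKM of 284, 280.1 and 272 in KO and 194, 209.8 and 206 in WT. Of the higher members, 27 were so under all 8 scalings and tools, without a share of all genes to set beside them.

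Among the 6 lower members, Rpl24 was lower under all 8 scalings and tools. Rpl24 had 96.8, 85.6 and 68.2 FPKM in KO with oxLDL against 113, 123 and 136 in WT with oxLDL, with a log2 difference of −0.88 (SE 0.1, adjusted p = 3.66e-06). The KO libraries lay wholly below the WT ones. Rps6 differed by −0.27 (SE 0.059, adjusted p = 0.00124) on the TMM scale and by 0.04 with library totals, and Rpl7l1 by −0.24 (SE 0.063, adjusted p = 0.00418) and 0.06. Rps19bp1 differed by −0.43 (SE 0.17, adjusted p = 0.0469), a call lost with library totals and with the upper quartile. Rpl39l, a paralogue of Rpl39 best known from testis, differed by −2.64 (SE 0.96, adjusted p = 0.0302), with FPKM of 0.0972, 0.0717 and 0 in KO and 0.253, 0.112 and 0.523 in WT that rest on 0 to 35 counts a library over the series. Leaving out WT oxLDL replicate 3 or KO oxLDL replicate 2 or 3 ended the call on Rpl39l.

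**Figure D4:**
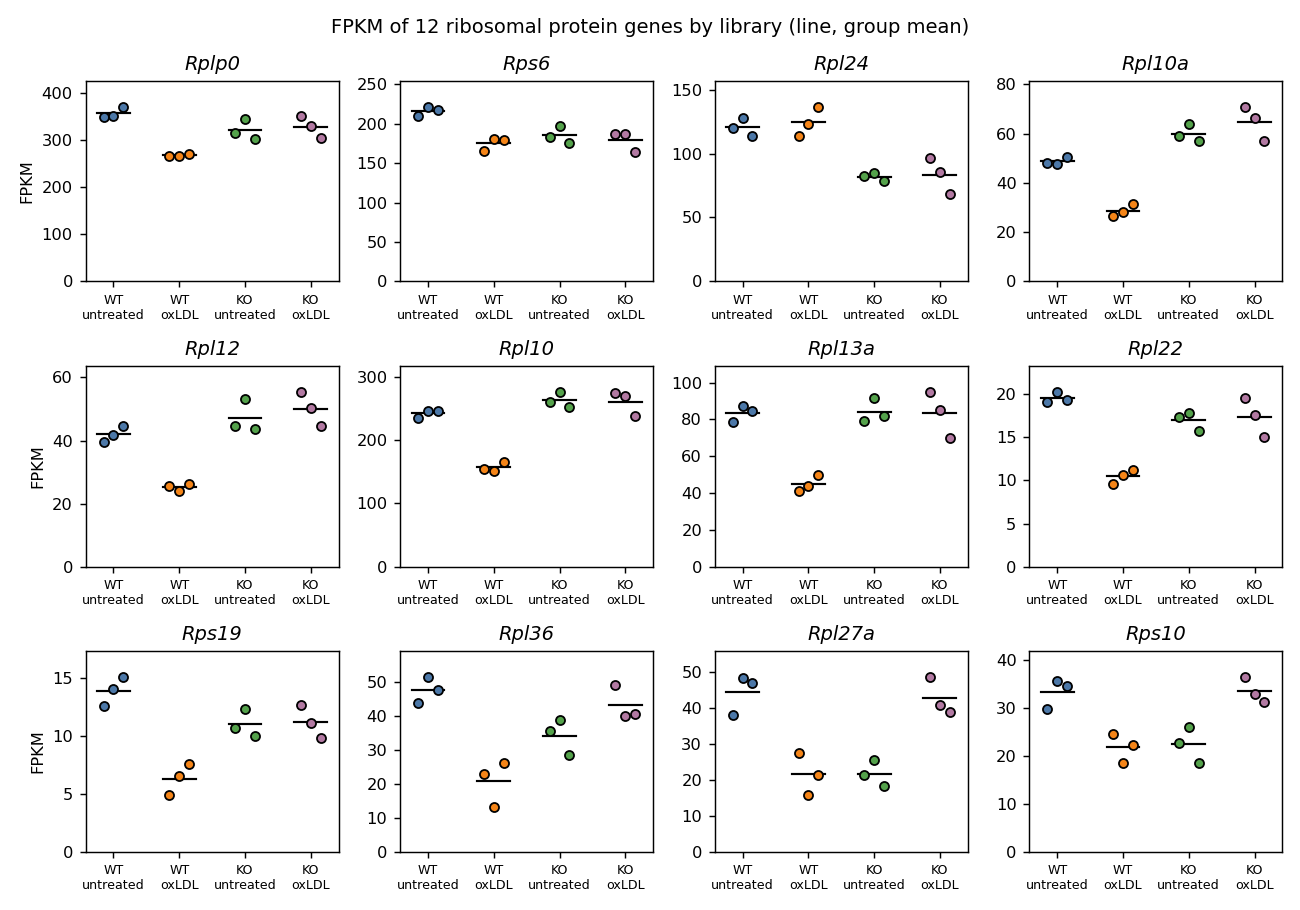
FPKM on the vertical axes of 12 ribosomal protein genes in the 4 groups on the horizontal axes; points are libraries in the order of replicates 1 to 3 and lines are group means. Rpl24 is lower in both KO groups, and Rpl27a and Rps10 are lower in WT with oxLDL and in untreated KO than in the other 2 groups. On the TMM scale the log2 change of Rps10 with oxLDL in WT was −0.20, that of the median canonical gene.

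The interaction asks whether the change with oxLDL differed between the genotypes. By edgeR's test it was higher in KO for 19 members and lower for 3, beside 41.7% of all genes, 22.1% higher and 19.6% lower. The count of higher members was thus near the background and that of lower members below it. The members' median difference was 0.20 with TMM, beside 0.08 for all genes. Scaling by library totals gave 70 higher and 1 lower, beside 52.1% of all genes called, 41.5% higher and 10.6% lower. DESeq2 gave 17 higher and 5 lower, beside 43.1% of all genes. Of the 77 canonical genes, 70 had a fitted difference above 0 on the TMM scale. The share of all genes above 0 is not given here, and their median was itself above 0. The canonical genes of one library also moved together, so the 70 are not separate results.

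Among the members called, Rpl27a had the largest difference, 1.61 (SE 0.24, adjusted p = 6.81e-05): its change was −0.63 in WT and 0.98 in KO. For Rpl36 the difference was 1.12 (SE 0.27, adjusted p = 0.00417), for Rps10 0.78 (SE 0.17, adjusted p = 0.00197) and for Rps19 0.75 (SE 0.2, adjusted p = 0.00627). The stalk tip genes Rplp1 and Rplp2 had differences of 0.65 and 0.51, with adjusted p = 0.00763 and 0.014. Under all 8 scalings and tools, 14 members had a higher interaction, again without a share of all genes to set beside them. The calls on Rpl24, at −0.42 (SE 0.14, adjusted p = 0.0301), and on Rps19bp1 were lost with library totals. Without KO oxLDL replicate 3, 34 members had a higher interaction, beside 20.8% of all genes, and without replicate 1 of that group 12 did, beside 19.8%.

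**Figure D5:**
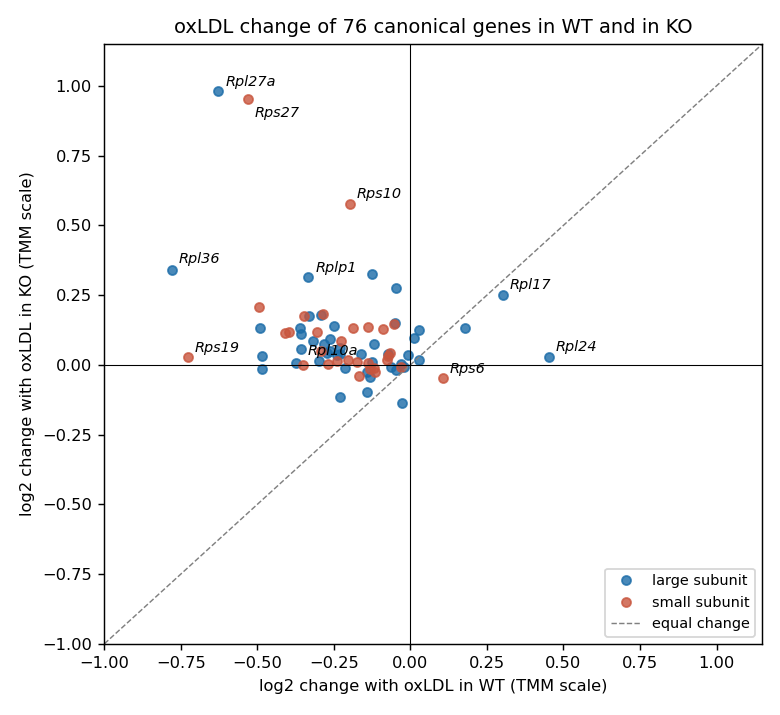
Fitted log2 change with oxLDL on the TMM scale for 76 canonical genes, in WT on the horizontal axis and in KO on the vertical axis; the dashed line marks equal change. Most genes lie left of 0 and near 0 in KO, Rpl24 lies to the right, and Rpl27a stands at −0.63 in WT and 0.98 in KO.

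Paralogues can replace a canonical protein in some ribosomes, and the ratio of a paralogue to its canonical gene within a library needs no scaling. Ratios of 6 pairs were tested in 4 comparisons, 24 tests in all, and with 3 libraries against 3 the smallest p of the two-sided exact permutation test is 0.1. No ratio could therefore pass 0.05 whatever its values, and the test cannot say whether a ratio changed. The smallest Benjamini-Hochberg adjusted p was 0.24. Rpl7l1 made up 16.7, 16.6 and 18.2% of the counts of Rpl7l1 and Rpl7 in untreated WT and 19.8, 19.9 and 19.5% in WT with oxLDL. It was 16.4, 15.9 and 14.99% in untreated KO and 16.1, 15.6 and 16.9% in KO with oxLDL. The WT oxLDL libraries thus had the highest share of Rpl7l1, with no overlap. The log2 ratio of Rpl36al to Rpl36a was 0.29 higher with oxLDL in WT, without overlap, and that of Rpl22l1 to Rpl22 was 0.26 higher with oxLDL in KO, also without overlap. Rpl22l1 itself was called higher in KO than in WT with oxLDL, 0.60 (SE 0.24, adjusted p = 0.0471), a call that RLE scaling and DESeq2 did not give. Rps27l against Rps27 overlapped in all 4 comparisons. Rpl39l made up at most 0.491% of the counts of Rpl39l and Rpl39 in KO with oxLDL, on 0 to 7 counts of Rpl39l a library, and 0.746 to 3.76% in the libraries of the other groups. That of Rps4l, annotated as a pseudogene, to Rps4x was 0.52 higher with oxLDL in KO, without overlap. Rps4l had FPKM of 4.31, 3.13 and 4.004 in untreated WT and 5.23, 1.68 and 3.96 with oxLDL.

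Reads of near-identical copies and of overlapping genes may be shared, because no source used here names the counting tool or says whether it used strand. The 220 -ps rows of cytosolic ribosomal protein genes, those of Rplp0 and Rpsa included, are not members. They held 7.52 to 8.45% as many counts as the members in each library, and 126 passed the filter. Of these 126, 5 were higher and 2 lower in untreated KO against WT by edgeR's test, 5.56% called beside 31.0% of all genes. Among those called, Rps10-ps2 differed by −0.47 (adjusted p = 0.00808), beside −0.46 for Rps10. Rpl10-ps1 differed by 0.39 (adjusted p = 0.00197), beside 0.22 for Rpl10. Rows of other genes overlapped 50 members, 23 of them on the opposite strand. For 12 members such a row held at least 10% as many counts as the member. Lrsam1 held 13.8% as many counts as Rpl12, with a log2 change of −0.61 with oxLDL in WT, and Syngr1 27.9% as many as Rpl3, with −1.64. Ndst1 held 164% as many as Rps14, with −1.23. Rps14, the small subunit gene tied to the 5q syndrome, was itself not called in WT, with −0.19 (SE 0.098, adjusted p = 0.128). The part of these rows in the members' values was not tested.

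Genes that build, regulate and use ribosomes were taken from lists of known factors, and in WT they did not all move with the ribosomal proteins. The counts below stand beside 23.9% of all genes higher and 27.2% lower with oxLDL in WT on the TMM scale, and 12.9% and 48.1% with library totals. Of 60 ribosome biogenesis genes, 25 were higher and 7 lower with oxLDL in WT on the TMM scale, 53.3% called beside 51.2% of all genes. In KO against WT with oxLDL, 7 were higher and 31 lower, 63.3% called beside 57.9%. With library totals the direction of the majority turned in both comparisons, to 8 higher and 34 lower in WT and to 23 higher and 15 lower in KO against WT with oxLDL. The 4 genes named next had the smallest p with oxLDL in WT on the TMM scale. Their large changes follow from that choice and do not describe the list. Wdr43, a factor of small subunit processing, had 0.99 (adjusted p = 1.56e-09). Tcof1, the treacle protein of rDNA transcription, had 1.08 (adjusted p = 2.13e-09). Sbds, the Shwachman-Diamond protein that helps release Eif6 from the large subunit, had 0.93 (adjusted p = 2.21e-08). Rrs1, which helps load 5S rRNA, had 0.96 (adjusted p = 4.59e-07). Of 19 genes of RNA polymerase I and its factors, 1 was higher and 4 lower with TMM, 26.3% called and below the 51.2% of all genes, and 0 and 15 with library totals, with Polr1b, a core subunit, at −0.49 (adjusted p = 0.000145). Of 8 dedicated chaperones of ribosomal proteins, 1 was lower with TMM, 12.5% called, and 7 with library totals, and 0 were higher with either. Nap1l1, which encodes a histone chaperone, was lower at −0.46 (adjusted p = 1.45e-05).

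Of 37 initiation factor genes, 20 were higher and 7 lower in WT with oxLDL with TMM, 73.0% called beside 51.2% of all genes, and 6 higher and 21 lower with library totals. Eif4g2, a variant of the scaffold of initiation, was higher by 1.37 (adjusted p = 1.11e-12) and Eif4e, which binds the cap, by 0.82 (adjusted p = 1.51e-09). Eif4ebp2, an inhibitor of Eif4e, was lower at −1.34 (adjusted p = 2e-10). Of 8 elongation genes, 2 were higher and 3 lower with TMM, 62.5% called, and 1 and 7 with library totals. Among them Eef2k, the kinase that inactivates elongation factor eEF2, had −3.28 (adjusted p = 1.91e-10) in WT, and the difference between KO and WT with oxLDL was 3.36 (adjusted p = 8.37e-11). Eef2 itself was 476, 457 and 503 FPKM in untreated WT and 350.2, 329.9 and 324 in WT with oxLDL. These values did not overlap, but FPKM rests on library totals, with which 66.6% of all genes did not overlap. On the TMM scale its log2 change was −0.11 (adjusted p = 0.0495).

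Of 19 genes that regulate messages with a pyrimidine tract or ribosomal protein transcription, 7 were higher and 7 lower in WT with TMM, 73.7% called beside 51.2% of all genes, and 3 higher and 13 lower with library totals. Larp1 was higher by 1.34 (adjusted p = 3.19e-11) and Max, the partner of MYC, by 1.07 (adjusted p = 1.05e-10), and Mxi1, a MYC antagonist, was lower at −2.12 (adjusted p = 1.14e-10). Of 9 S6 kinase genes tested, 3 were higher and 3 lower with TMM, 66.7% called, and 1 and 6 with library totals, with Rps6ka4 at 1.18 (adjusted p = 3.09e-08) and Rps6kb1, the kinase of RPS6 downstream of mTOR, at −0.71 (adjusted p = 5.5e-08). Rps6kb1 was 1.03 higher in KO than in WT with oxLDL (adjusted p = 5.39e-10). Of 10 quality control genes, 5 were higher and 1 lower with TMM, beside 51.2% of all genes called, and 3 higher and 5 lower with library totals. Mdm2, the ligase that RPL5 and RPL11 bind, was higher by 1.31 (adjusted p = 1.93e-11).

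The name rule left out genes whose proteins belong to the cytosolic ribosome or bind it, among them Fau, whose product is cut to give RPS30, and Rack1, a scaffold on the small subunit. Fau had 84.9, 88.05 and 82.7 FPKM in untreated WT and 50.3, 52.2 and 54.8 with oxLDL, with no overlap in FPKM. Its log2 change on the TMM scale was −0.29 (adjusted p = 0.0131). Rack1 was not called in WT. Of 78 genes of the mitochondrial ribosome, 30 were lower and 13 higher with oxLDL in WT, beside 27.2% and 23.9% of all genes. Library totals gave 52 and 2, beside 48.1% and 12.9%. In untreated KO against WT, 16 were lower and 0 higher, beside 16.2% and 14.8% of all genes. Library totals gave 30 and 0, beside 22.3% and 10.2%. With TMM, 55.1% and 20.5% of the 78 were called in these 2 comparisons, beside 51.2% and 31.0% of all genes. The median changes of the 78 were −0.24 and −0.20 with TMM, where those of the cytosolic members were −0.17 and −0.04. Mrpl42 was lower at −1.02 (adjusted p = 2.34e-06) and Mrpl39 higher by 0.80 (adjusted p = 1.78e-05) with oxLDL in WT.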

How the data were processed

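Poly(A) RNA of 12 libraries was sequenced in pairs, per the labels' protocols. HISAT2 2.0, Bowtie 0.12.2 and build mm8 are named in the submitters' processing notes. Of 21990 genes matched by Entrez identifier to RefSeq's GRCm38.p6, 99.93% overlapped their deposited position, so positions are given as GRCm38. No source used here says how reads were counted, or with which annotation and strand setting. The deposited table gives raw read counts and FPKM per gene, per the file headers, both made by the authors.

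The counts were tested with edgeR 4.0.16 in R 4.3.3 (TMM, filterByExpr, quasi-likelihood test, all 4 groups in one fit without a block). P-values were adjusted by the Benjamini-Hochberg method over all 17291 genes and called under 0.05. Alternatives used other scalings, DESeq2 1.42.0, limma 3.58.1 on log2(FPKM + 1), and the omission of each library. The script was tested on simulated data. The members, gene lists and tests were chosen with earlier results of these data known. Named genes were members fixed by role, in each comparison the 3 called members with the largest change in each direction, members called against the majority where 5 or fewer, non-ribosomal members, and up to 4 genes of each pathway list with the smallest p. Values of 1 member that this rule names, and of 1 other gene, are not reported here, and that member is not plotted. Others in the text were chosen after their values were seen. The mitochondrial and -ps lists were added after the data were seen. Promoter and protein sequences were not analysed here. Same-numbered libraries of different groups correlated at −0.046 to 0.033 in their deviations from group means, so the numbers were not taken as pairs.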

Additional observations from a re-analysis of the deposited data

Results flagged for a closer look

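In 13 of the members named in the text the change with oxLDL differed between the genotypes by edgeR's interaction test. Values are the log2 change in KO minus that in WT. Of all genes tested, 41.7% were called in this interaction, 22.1% higher and 19.6% lower. Many of the 13 were named for large changes in these data, so their number is not a result on the members. The calls on Rps19bp1 and Rpl24 were lost with library totals. The difference was lower in KO for Rps19bp1, −0.66, and Rpl24, −0.42. It was higher in KO for Rpl27a, 1.61, Rpl36, 1.12, Rps10, 0.78, Rps19, 0.75, Rplp1, 0.65, Rpl22, 0.52, Rplp2, 0.51, Rpl10a, 0.47, Rpl13a, 0.47, Rpl12, 0.40, and Rpl3, 0.31.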

How the results depend on the processing

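The values below are members called, on the TMM fit unless a scaling is named. For most of these settings the share of all genes called is not given. The counts show how calls depend on the processing and are not read as results on the members. With library totals, totals without the members, limma on log2(FPKM + 1) and limma on log2(FPKM + 0.1), in that order, oxLDL in WT gave 1, 1, 1 and 1 higher and 75, 75, 74 and 74 lower. KO against WT untreated gave 1, 1, 1 and 1 higher and 12, 12, 10 and 9 lower, and KO against WT with oxLDL 69, 69, 68 and 68 higher and 3, 3, 3 and 3 lower. The interaction gave 70, 71, 69 and 69 higher and 1, 1, 1 and 1 lower. The upper quartile gave 2 higher and 40 lower for oxLDL in WT and 1 lower for the interaction. DESeq2 gave 2 higher for oxLDL in KO and 5 lower for the interaction, which had 1 lower without the low-count filter. A fit on only the groups compared gave 1 higher for oxLDL in KO and 11 lower for KO against WT untreated. The share ratio in WT was 0.657 without the 10 most abundant other genes.

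In the same 4 settings some directions turned. With oxLDL in WT, Rps6 had −0.30, −0.31, −0.30 and −0.30 and Rpl7l1 −0.21, −0.21, −0.20 and −0.21. Between KO and WT with oxLDL, Rplp0 had 0.30, 0.30, 0.29 and 0.29, Rps6 0.037, 0.042, 0.034 and 0.034, Rpl36al 0.28, 0.29, 0.27 and 0.28, and Rpl7l1 0.060, 0.065, 0.055 and 0.057. In the interaction Rps6 had 0.26, 0.27, 0.25 and 0.26 and Rpl7l1 0.24, 0.24, 0.22 and 0.23. These settings scale by totals alone, without the TMM factors that differ between WT groups.

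Leaving out 1 library at a time, oxLDL in WT had 2 to 4 higher and 14 to 32 lower, with 14 without WT oxLDL replicate 2, 15 without WT oxLDL replicate 1 and 16 without WT untreated replicate 2, and 2 higher without WT untreated replicate 1 or WT oxLDL replicate 3. oxLDL in KO had 0 to 1 higher, 1 without WT oxLDL replicate 1 or 2. KO against WT untreated had 2 to 4 higher and 2 to 6 lower, with 2 higher without WT untreated replicate 1 or 2 or KO untreated replicate 2, and 2 lower without KO untreated replicate 3. KO against WT with oxLDL had 22 to 48 higher and 4 to 8 lower. The interaction had 12 to 34 higher and 1 to 3 lower, with 12 higher without WT oxLDL replicate 2 and 1 lower without WT untreated replicate 1 or 3, WT oxLDL replicate 3, KO untreated replicate 2 or KO oxLDL replicate 2 or 3. The causes were not tested. Here too the share of all genes called in each fit is not given, so a shift in these counts cannot be ascribed to the members. With the replicate number as a block, oxLDL in WT had 3 higher and 21 lower, oxLDL in KO 0 and 0, KO against WT untreated 3 and 4, KO against WT with oxLDL 30 and 4, and the interaction 14 and 2. Of the alternative values of counts and shares, 198 stayed within 1.5 times or 1 SD and 62 did not. Of those of single genes, 3719 kept direction and call, 130 lost and 245 gained a call, and 32 turned. With 3 libraries a group, precision rests on their spread.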
